A study of Mus musculus with 19 samples.

Results

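The genes described here encode secreted proteins of the acute phase response and the subunits of calprotectin, measured in cultured pancreatic islets of the mouse strains C57BL6/J (B6) and C57BLKS/J (BLKS) in low and high glucose. They were chosen by name, as every non-control probe whose gene name on the array was S100a8, S100a9, Lcn2, Lrg1, Saa3, C3, Hp or Cp, which gave 9 of 41174 probes, for 8 of 29742 gene names. C3 had 2 probes and the other genes 1 each. All mice were 12 weeks old, and the islets of each mouse were kept separate, held for 48 h in 11 mM glucose and then for 24 h in 5 mM (low) or 20 mM (high) glucose. The groups were B6 low (n = 5 mice), B6 high (n = 5), BLKS low (n = 5) and BLKS high (n = 4). All groups had therefore been taken from the animal and cultured, and none was measured fresh. RNA of each mouse was labelled with Cy3 and with Cy5 and hybridised to 20 Agilent arrays of 2 colours, so that each value below is a mean over both dyes of a mouse. Mice were hybridised in pairs of a B6 and a BLKS mouse with 1 number and 1 glucose concentration, each pair on 2 arrays with opposite dyes (9 pairs), and B6 high 5 shared later-scanned arrays with B6 low 1.

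The acute phase response is a change in the production of secreted proteins that follows injury, infection or inflammatory cytokines, and is best known from the liver. S100a8 and S100a9 encode the partner subunits of calprotectin, which binds calcium, zinc and manganese and is most abundant in neutrophils. Lipocalin 2 (Lcn2) binds iron-loaded bacterial siderophores, Lrg1 is a leucine-rich glycoprotein of plasma, Saa3 is the serum amyloid A that is made mainly outside the liver, C3 is the central protein of complement, and haptoglobin (Hp) and ceruloplasmin (Cp) bind haemoglobin and carry copper. Many genes of this kind are induced by interleukin 1 and interleukin 6 through the transcription factors NF-kB, STAT3 and C/EBP.

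Depth and quality can be stated for the whole series in brief. The median signal of an array lay between 75.1 and 103 units in Cy3 and between 75.0 and 103 units in Cy5, against 51.6 to 60.9 and 50.8 to 58.6 units for the negative control spots. The software called 83.9% of negative control spots well above background in Cy3 (median over arrays) but 0.318% in Cy5, so detection rests on Cy5. Endocrine identity was clear, since all 13 endocrine markers (among them Ins1, Ins2 and Gcg) were tested and well above background in all 19 mice. The libraries labelled B6 low 4 and BLKS low 5 stood apart. On a scale from 106 probes that separated the strains in high glucose, on which other B6 mice lay between -0.04 and 0.05 and other BLKS mice between 0.93 and 1.01, the library labelled B6 low 4 lay at 0.99 and the library labelled BLKS low 5 at -0.013. The labels were kept as given, and results that rest on these libraries are given with and without them.

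Promoter sequences are shown for 4 members, because S100a8 and S100a9 are neighbours on chromosome 3 whose products form 1 complex, and because Lcn2 and C3 had the highest correlation among mice when all 19 were included. They are the 250 bases before the start of each gene in RefSeq (build GRCm38.p6), 5′ to 3′ on the strand of the gene, and 7 of the 8 member genes had an entry, Hp being the exception. The S100a8 promoter lies at chr3:90668821-90669070 (plus strand) and that of S100a9 at chr3:90695722-90695971 (minus strand). Those of Lcn2 and C3 lie at chr2:32387740-32387989 and chr17:57228137-57228386, both on the minus strand. Capitals mark the letters of a motif.
S100a8: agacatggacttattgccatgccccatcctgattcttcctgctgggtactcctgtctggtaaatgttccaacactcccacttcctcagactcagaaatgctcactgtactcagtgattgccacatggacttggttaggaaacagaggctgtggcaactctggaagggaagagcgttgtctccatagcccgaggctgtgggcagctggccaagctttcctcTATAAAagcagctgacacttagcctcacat
S100a9: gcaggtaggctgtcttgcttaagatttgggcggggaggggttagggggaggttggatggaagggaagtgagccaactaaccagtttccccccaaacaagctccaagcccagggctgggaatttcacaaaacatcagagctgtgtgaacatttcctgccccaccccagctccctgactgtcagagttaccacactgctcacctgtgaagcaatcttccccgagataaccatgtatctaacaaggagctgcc
Lcn2: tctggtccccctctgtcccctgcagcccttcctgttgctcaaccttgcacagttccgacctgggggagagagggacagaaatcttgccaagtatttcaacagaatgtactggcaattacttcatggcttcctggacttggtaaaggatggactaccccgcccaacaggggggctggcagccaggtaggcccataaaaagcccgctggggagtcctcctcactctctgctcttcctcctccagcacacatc
C3: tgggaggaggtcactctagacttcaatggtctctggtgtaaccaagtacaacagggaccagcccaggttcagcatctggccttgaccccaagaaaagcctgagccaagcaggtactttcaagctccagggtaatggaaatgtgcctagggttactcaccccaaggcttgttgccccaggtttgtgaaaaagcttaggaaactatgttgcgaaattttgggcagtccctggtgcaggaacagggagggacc
On both strands, the letters TTGCNNCAA (a C/EBP motif), TTCNNNGAA (a STAT motif), GGGA and TCC with any 3 bases between them (an NF-kB motif) and TATAAA (the TATA box) were searched, which occur in 1.74%, 7.02%, 3.86% and 12.4% of 32841 promoter entries of the same length. S100a8 held TATAAA, starting 30 bases before the gene, and 1 of the 2 entries of Cp held the same letters. The TTGCNNCAA, STAT and NF-kB letters matched in none of the windows of S100a8, S100a9, Lcn2, Lrg1, Saa3, C3 and Cp, which says only that these letters are not there. The Saa3 window and the Cp window with TATAAA lie within the span of the gene in RefSeq, and the other Cp window overlaps it. For these 2 genes the letters searched are therefore not all from before the outermost start.

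Detection differed widely among the 9 probes. Lcn2, Lrg1 and the C3 probe A_51_P110301 were well above background in every channel of all 19 mice, and Cp was in 18. S100a9 was detected in 15 mice (2 of B6 low, 5 of B6 high, 4 of BLKS low and 4 of BLKS high). Saa3 was detected in 10 mice (1, 3, 2 and 4 in the same order). S100a8 was detected in 3 mice, 1 of B6 high and 2 of BLKS high, the C3 probe A_52_P133594 in 2 mice and Hp in 0. The limit for a test, detection in at least 4 mice, was met by 6 of the 9 probes. For Saa3 the 4 mice of BLKS high would have met the limit on their own, so counts that include it are descriptions. Above the negative controls, the mean log2 signal was 3.80 for C3, 2.31 for Lcn2, 2.20 for Lrg1, 1.0 for S100a9, 0.66 for Cp, 0.32 for Saa3, 0.15 for S100a8 and 0.02 for Hp. No member channel was saturated.

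With high glucose, 5 of the 6 tested probes rose when the response was averaged over both strains (limma, Benjamini-Hochberg adjusted p below 0.05, where 22.3% of all 29326 tested probes were called and 10.8% were called higher). These were S100a9, 2.68-fold, Lcn2, 2.46-fold, Lrg1, 2.31-fold, C3, 1.61-fold, and Saa3, 1.24-fold. Cp did not pass, at 0.17 on the log2 scale (95% interval from -0.031 to 0.36). The median response of the 6 probes was 0.95 on the log2 scale, beside -0.004 over all tested probes, and all 5 calls held when each of the 19 mice was left out in turn. When the pairing of mice on arrays entered as a random block, 3 of these calls remained (S100a9, C3 and Lrg1, where 13% of all tested probes were called), and Lcn2 (limma adjusted p = 0.0607) and Saa3 (0.0568) did not pass. These are bulk samples, in which fewer cells of a type and less RNA per cell cannot be told apart. Within a strain the calls were fewer. In BLKS islets 3 of the 6 were called (S100a9, C3 and Saa3, against 11.6% of all tested probes, 6.48% of them higher), and in B6 islets 1 of the 6 (C3, against 9.53%, with 5.41% higher). Between strains in high glucose 1 of the 6 was called, S100a9, higher in BLKS (11.1% of all tested probes called, 4.98% higher). In low glucose 0 of the 6 were called, as were 0% of all tested probes, with 1 member (C3) at an unadjusted limma p below 0.05. The difference between the glucose responses of the strains was called for 0 of the 6 (0.0409% of all tested probes), with 1 member (S100a9) at an unadjusted p below 0.05. The linear model that the study's methods describe takes the Cy3 and Cy5 values of a mouse as separate observations, so that its n exceeds the number of mice. It called C3 in low glucose (12.6% of all tested probes called) and S100a9 for the difference between responses (0.726%).

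**Figure D1:**
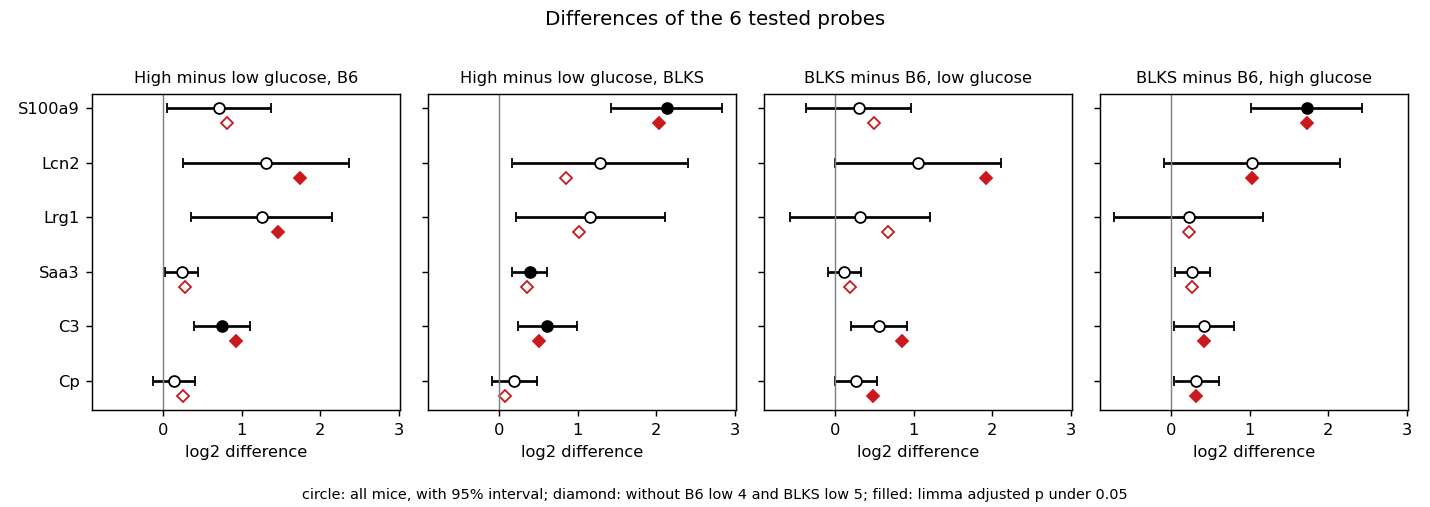
Log2 differences (x axis) of the 6 tested probes for the glucose response of each strain and the strain difference in each glucose concentration. Circles are all mice with their 95% interval, diamonds the fit without B6 low 4 and BLKS low 5, and filled symbols have a limma adjusted p below 0.05; with all mice S100a9 stands at 2.14 for BLKS islets and at 1.72 between strains in high glucose.

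S100a9 rose with glucose in BLKS islets by more than any other member in any comparison between groups. Its log2 signals in low glucose were 5.98, 5.93, 5.98, 6.43 and 5.92 in B6 1 to 5. In BLKS low they were 6.20, 6.60, 6.24, 6.76 and 5.95, with means 0.24 (B6) and 0.55 (BLKS) above the negative controls. B6 high gave 6.33, 6.27, 7.23, 6.01 and 7.96. BLKS high gave 9.08, 9.02, 7.75 and 8.10, which put every mouse of BLKS high above every mouse in low glucose, with B6 high 5 alone reaching into its range. From low to high glucose the mean moved from 6.35 ± 0.33 (SD, n = 5) to 8.49 ± 0.66 (SD, n = 4) in BLKS, a rise of 2.14 or 4.39-fold (SE 0.34, limma adjusted p = 0.000377, exact permutation p = 0.00794, the smallest that 5 against 4 mice allow). In B6 it was 6.05 ± 0.22 (SD, n = 5) in low and 6.76 ± 0.81 (SD, n = 5) in high glucose, a difference of 0.71 that did not pass (limma adjusted p = 0.193, exact permutation p = 0.0952). S100a9 was detected in 2 of 5 B6 low and 4 of 5 BLKS low mice and these signals include background, so differences against the low groups, and those between them, are differences of signal that can understate a difference in RNA. The response of BLKS exceeded that of B6 by 1.42 (SE 0.46, 95% interval 0.45 to 2.39), which did not pass after adjustment over all probes (limma adjusted p = 0.806), and leaving out each mouse in turn gave 1.23 to 1.72. In high glucose BLKS exceeded B6 by 1.72, or 3.31-fold (SE 0.34, limma adjusted p = 0.00465, exact permutation p = 0.0238), and in low glucose by 0.30 (adjusted p = 0.762). Over both glucose concentrations the strain difference was 1.01 (adjusted p = 0.00542, where 18.7% of all tested probes were called, 8.06% higher).

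S100a8, which encodes the other subunit, lay close to the limit of detection, and its highest values were again those of BLKS high. The log2 signals were 5.77 to 5.84 in B6 low and 5.82 to 5.91 in BLKS low, with no mouse detected in either group. In B6 high they were 5.74, 5.85, 6.07, 5.85 and 6.29, with mouse 5 highest. BLKS high had 6.43, 6.50, 6.02 and 6.08, each above every mouse in low glucose, as were B6 high 3 and 5. As the dim group was not well above background, only a bound can be given, taken in Cy5, in which BLKS high was at least 1.18-fold above BLKS low, with 2 of 4 against 0 of 5 mice detected. In B6 the same calculation gave 1.04, with 1 of 5 against 0 of 5 mice detected, which does not establish a rise. Both values use a mean of the high group that includes mice in which the probe was not detected. The exact permutation test gave p = 0.00794 for the glucose response of BLKS and p = 0.183 for that of B6. S100a8 was not tested by limma under the filter on dim probes, and the ranks of mice in the low groups are ranks of background.

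**Figure D2:**
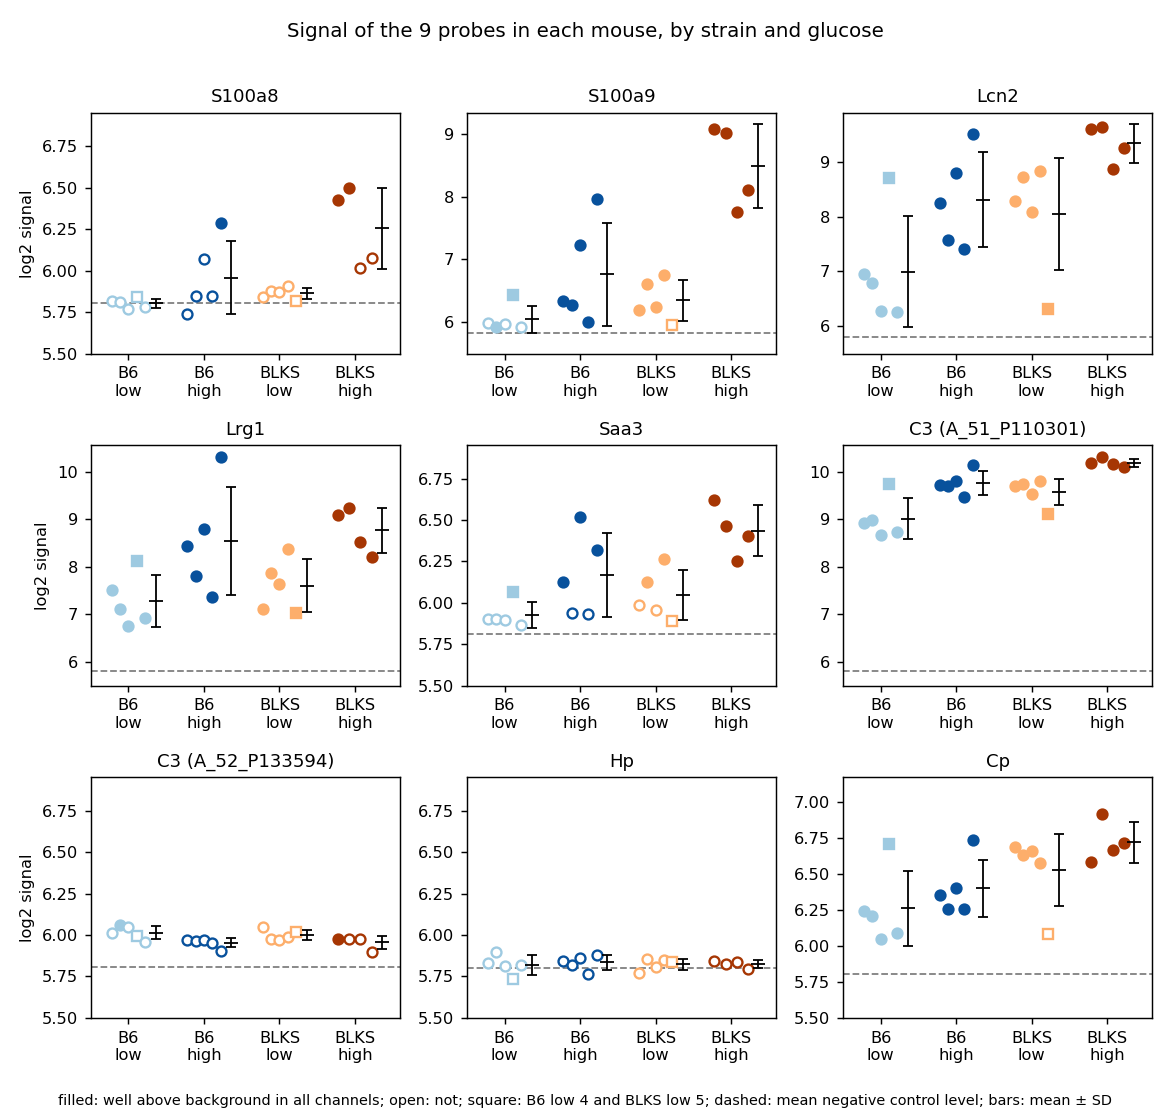
Log2 signal (y axis) of each of the 9 probes in each mouse by group, filled where the probe was well above background in all channels and open where it was not, with black bars for the group mean ± SD and a dashed line for the mean negative control level. Squares are B6 low 4 and BLKS low 5; S100a9 separates BLKS high (7.75 to 9.08) from both low groups, whereas Hp is open in all 19 mice.

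Lcn2, the siderophore-binding lipocalin, was detected in every mouse and had a higher mean in high than in low glucose in both strains. B6 low gave log2 signals of 6.95, 6.79, 6.28, 8.71 and 6.26, where mouse 4 lies far above the others. B6 high gave 8.24, 7.57, 8.79, 7.42 and 9.50. BLKS low gave 8.28, 8.73, 8.08, 8.84 and 6.32, where mouse 5 lies far below the others. BLKS high gave 9.59, 9.63, 8.87 and 9.25, just above the highest mouse of BLKS low. The exceptional mice of the low groups are the libraries that stood apart on the strain scale. The differences with glucose were 1.31 in B6 (7.0 ± 1.01 against 8.31 ± 0.87, SD, n = 5 each) and 1.29 in BLKS (8.05 ± 1.02, n = 5, against 9.34 ± 0.36, n = 4). Neither passed within a strain (limma adjusted p = 0.121 and 0.135; exact permutation p = 0.0556 and 0.0317), although the BLKS groups did not overlap. The difference between these responses was -0.02, with a 95% interval from -1.56 to 1.52, so that unequal responses of either sign remain within the error.

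With no block for the array pair, the call for Lcn2 between strains in low glucose turned on these 2 libraries, and leaving out either gave it. With all mice BLKS exceeded B6 by 1.05 (limma adjusted p = 0.312). Without both of them the difference was 1.91 (adjusted p = 0.000887, where 15.6% of all tested probes were called), the groups did not overlap and the exact permutation p was 0.0286, the smallest that 4 against 4 mice allow. The response of B6 was then 1.74 (adjusted p = 0.00201, with 12.2% of all tested probes called) and that of BLKS 0.85.

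Lrg1, the leucine-rich glycoprotein, had a higher mean in high glucose in both strains, with the widest spread in B6 high. The log2 signals of B6 low were 7.50, 7.12, 6.76, 8.13 and 6.92. Those of B6 high were 8.44, 7.80, 8.79, 7.36 and 10.30, the last being the highest value of this probe in any mouse. BLKS low gave 7.11, 7.88, 7.63, 8.37 and 7.02 and BLKS high 9.10, 9.23, 8.52 and 8.21, so that a single BLKS low mouse reached into the high group. The difference with glucose was 1.25 in B6 (7.29 ± 0.55 against 8.54 ± 1.13, SD, n = 5 each, limma adjusted p = 0.0739, exact permutation p = 0.0476) and 1.16 in BLKS (7.60 ± 0.56, n = 5, against 8.76 ± 0.48, n = 4, adjusted p = 0.109, exact permutation p = 0.0238). The B6 difference passed when B6 low 4 or B6 high 4 was left out, and the BLKS difference when B6 high 5 was left out. Between strains in high glucose the difference of Lrg1 was 0.23 (95% interval -0.72 to 1.17, exact permutation p = 0.746).

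Saa3, the serum amyloid A made outside the liver, was dim throughout, and its range over all mice was 5.86 to 6.62 on the log2 scale. BLKS high gave 6.62, 6.46, 6.25 and 6.41, and BLKS low 5.99, 6.13, 5.96, 6.26 and 5.89, an overlap of 1 mouse on each side. The rise in BLKS was 0.39, or 1.31-fold (SE 0.11, limma adjusted p = 0.0212, exact permutation p = 0.0238), and it was lost when BLKS low 5, BLKS high 1 or BLKS high 2 was left out. Without both libraries that stood apart the Saa3 difference was 0.35 (adjusted p = 0.0518). B6 low gave 5.91, 5.90, 5.89, 6.07 and 5.86 and B6 high 6.13, 5.94, 6.52, 5.93 and 6.32, a difference of 0.24 that did not pass (adjusted p = 0.159, exact permutation p = 0.0556). As these values lie near background, folds understate any difference in RNA. Probes of the serum amyloid A family can share targets, which the files do not resolve.

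C3, the hub of the complement cascade, was called for the glucose response of each strain on its own, which no other member was. Signals of A_51_P110301 in B6 low were 8.93, 8.99, 8.67, 9.75 and 8.74 on the log2 scale, and 9.71, 9.69, 9.81, 9.46 and 10.15 in B6 high. Without mouse 4, which again lies apart, B6 low ended at 8.99, below every B6 high mouse. BLKS low gave 9.69, 9.73, 9.52, 9.79 and 9.12 and BLKS high 10.18, 10.30, 10.16 and 10.11, with no overlap. C3 rose by 0.75, or 1.68-fold, in B6 (9.01 ± 0.43 to 9.77 ± 0.25, SD, n = 5 each, SE 0.17, limma adjusted p = 0.00785, exact permutation p = 0.0317), and this call held in all 19 fits that left out 1 mouse (0.66 to 0.93). It rose by 0.62, or 1.53-fold, in BLKS (9.57 ± 0.27, n = 5, to 10.19 ± 0.08, n = 4, SE 0.18, limma adjusted p = 0.0318, exact permutation p = 0.00794). The BLKS call was lost in 6 of the 19 fits, those without BLKS low 3, BLKS low 5 or any 1 of the 4 BLKS high mice. Over both glucose concentrations C3 was higher in BLKS by 0.49 (adjusted p = 0.0101). The probe A_52_P133594, which lay between 5.90 and 6.06 in all mice and was detected in 2, gives no fold and does not show these differences, so the C3 result rests on 1 probe.

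Of the plasma carriers, Cp was called between strains and not with glucose, and Hp was not well above background in any mouse. Cp log2 signals were 6.24, 6.21, 6.05, 6.71 and 6.09 in B6 low and 6.35, 6.26, 6.40, 6.26 and 6.73 in B6 high. In BLKS they were 6.68, 6.63, 6.65, 6.58 and 6.08 in low glucose and 6.58, 6.92, 6.66 and 6.71 in high glucose, and apart from BLKS low 5 every BLKS mouse was at or above 6.58. Over both glucose concentrations Cp was 0.29 higher in BLKS (SE 0.09, limma adjusted p = 0.0359), a call that held in only 5 of the 19 fits that left out 1 mouse. Without both libraries that stood apart it was 0.40 (adjusted p = 8.03e-05, where 25.8% of all tested probes were called). Hp signals lay between 5.73 and 5.90, at most 0.10 above the negative controls, and a difference in Hp was not detectable at this signal.

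Comparing strains within array pairs sets mice of the same hybridisation beside each other. In high glucose S100a9 was higher in BLKS in all 4 pairs, by 2.74, 2.75, 0.51 and 2.09. Lcn2 was too (1.35, 2.06, 0.07 and 1.83), and so were C3 (0.35 to 0.64) and Cp (0.23 to 0.66). Pair 3 gave the smallest difference for S100a9 and Lcn2, and values of -0.06 for S100a8, -0.27 for Lrg1 and -0.27 for Saa3. With the pair as a fixed block, 4 of the 6 tested probes were called in high glucose, S100a9 (2.02, limma adjusted p = 0.00322), C3 (0.52, 0.0146), Lcn2 (1.33, 0.0382) and Cp (0.40, 0.0401), where 20% of all tested probes were called. With the pair as a random block Saa3 was called in addition (0.29), against 25.2% of all tested probes. In low glucose C3 was called in both blocked fits (0.56, adjusted p = 0.0247 and 0.0060, against 8.04% and 16.1% of all tested probes) and Lcn2 in the random one (1.05, adjusted p = 0.0498). The low glucose pairs 4 and 5 hold the libraries that stood apart. Their Lcn2 differences were 0.13 and 0.06, against 1.38, 1.94 and 1.81 in pairs 1 to 3, and those of C3 were 0.05 and 0.38 against 0.73, 0.74 and 0.85.

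**Figure D3:**
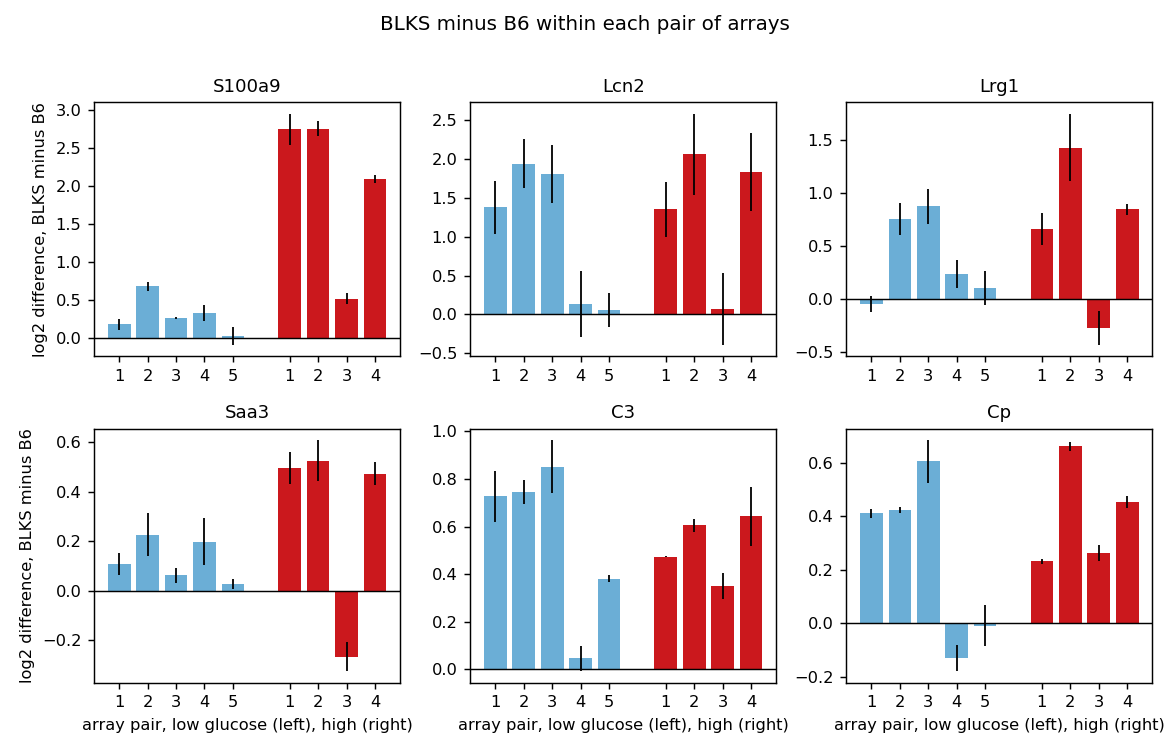
BLKS minus B6 log2 difference (y axis) of the 6 tested probes within each array pair, low glucose pairs 1 to 5 in blue and high glucose pairs 1 to 4 in red, with a thin line spanning the values of the 2 arrays of a pair. In high glucose all 4 pairs are above 0 for S100a9, Lcn2, C3 and Cp, and low glucose pairs 4 and 5 hold B6 low 4 and BLKS low 5.

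Leaving out the libraries labelled B6 low 4 and BLKS low 5 together changed the low glucose comparison most. The groups then did not overlap for 5 of the 6 tested probes, S100a9, Lcn2, Saa3, C3 (A_51_P110301) and Cp, with BLKS higher each time (exact permutation p = 0.0286). Over all tested probes, 8.32% were higher in BLKS without overlap in that comparison. Limma called 3 of the 6 tested members, Lcn2 (1.91), C3 (0.85) and Cp (0.49). In high glucose, where the same mice entered and only the spread shared by all groups was estimated anew, S100a9 (1.72), C3 (0.42), Cp (0.32) and Lcn2 (1.03) were called, 4 of the 6 against 15.3% of all tested probes. With all mice, the BLKS groups did not overlap with glucose for 3 of the 6 tested probes, S100a9, Lcn2 and C3 (A_51_P110301), where 7.09% of all tested probes were higher without overlap. For B6 and for either strain comparison, 0 of the 6 tested probes were without overlap in the higher direction (4.24%, 6.19% and 0.443% of tested probes for B6, high and low glucose).

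B6 high 5 was the highest mouse of its group for S100a8, S100a9, Lcn2, Lrg1, C3 and Cp, and is the only mouse measured on the later-scanned arrays alone. On those arrays it exceeded B6 low 1 by 2.01 for S100a9, 2.51 for Lcn2, 2.45 for Lrg1, 1.25 for C3, 0.52 for Cp, 0.45 for S100a8 and 0.39 for Saa3, all log2 differences between 2 mice on the same arrays. Without those arrays the B6 responses were 0.41 for S100a9, 1.02 for Lcn2, 0.88 for Lrg1, 0.21 for Saa3 and 0.65 for C3, the last still called (limma adjusted p = 0.0263), and the strain difference of S100a9 in high glucose was 2.02.

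The members varied together among mice of the same group, though for some pairs many other probes did so as closely. Deviations from the group means were compared over 19 mice for 15 pairs of tested members, and Pearson correlations ranged from 0.450 (Saa3 and Cp, Spearman 0.535, permutation p = 0.0536) to 0.944 (Lcn2 and C3, Spearman 0.912). For Lcn2 and C3 the permutation p was 1e-05, the smallest that 100000 permutations can give, and 3.75e-05 after Benjamini-Hochberg adjustment over the 15 pairs. Without B6 low 4 and BLKS low 5, the mice farthest from the median, that correlation was 0.918. S100a9 and Lrg1 correlated at 0.887 (Spearman 0.860), and at 0.829 without B6 high 5 and BLKS high 1. With group means recomputed without both libraries that stood apart, the 15 correlations ranged from 0.305 to 0.923, the highest then being that of Lcn2 and Lrg1, with 0.894 for Lcn2 and C3. That of Lcn2 and Cp went from 0.906 to 0.731, and that of S100a9 and Lcn2 from 0.740 to 0.887. Of tested probes other than its own, 0.00341% correlated with Lcn2 at least as highly as C3 did, a share that counts C3 itself. For Cp, 13.2% correlated at least as highly as Saa3 did, with Saa3 counted in the same way. That share, again with the partner counted, was 7.1% for S100a9 beside Cp, and 6.85% and 5.25% for Saa3 and S100a9 beside C3. Mice that share arrays may also share part of these deviations, which the permutations do not take into account.

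**Figure D4:**
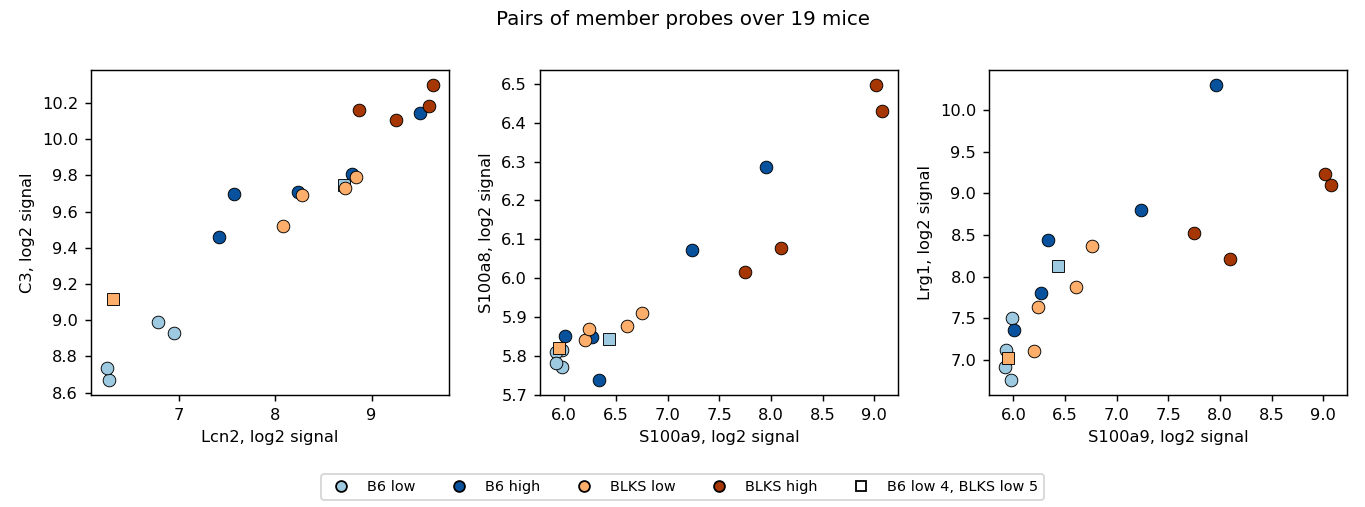
Log2 signals of Lcn2 against C3, S100a9 against S100a8 and S100a9 against Lrg1, 1 point per mouse coloured by group, with B6 low 4 and BLKS low 5 as squares. The B6 low square lies among the BLKS low mice and the BLKS low square near the B6 low mice for Lcn2 and C3, and B6 high 5 has the highest Lrg1 signal (10.30).

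Probes of other named genes followed the members over the 19 mice, with group differences included. Probes that carried only an accession or transcript identifier, or a Rik name, were not considered. The closest to S100a9 were RbmY1a1 (r = 0.942), Slc6a12 (0.935), a transporter of betaine and GABA, and Skd3 (0.928). Lcn2 was closest to C3 (0.956), Dnajd1 (0.939) and Ttyh1 (0.932), and C3 in turn to Ttyh1 (0.961), Dhrs7 (0.957) and Lcn2. Lrg1 was closest to H2-Bf (0.941), the older name of complement factor B, then to Slpi (0.889), a secreted inhibitor of leukocyte proteases, and Fasn (0.886), the fatty acid synthase. Saa3 was closest to Chi3l1 (0.956), a secreted chitinase-like protein, then S100a9 (0.914) and a Saa2 probe (0.886). Cp was closest to Krt2-8 (0.943), the keratin now named Krt8, then Wfdc2 (0.936) and Calca (0.935), the calcitonin gene. These correlations are descriptions over mice that share groups and arrays.

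Other acute phase and complement genes moved in both directions. Of 20 tested genes of plasma acute phase proteins, 3 were higher and 5 lower with glucose over both strains, with a median of 0.02 on the log2 scale, where 10.6% and 12.9% of all 21536 tested genes were called higher and lower. Chi3l1 rose by 0.31 (limma adjusted p = 0.0191). Mt1, a metallothionein, fell by 0.93 (adjusted p = 0.00939), and Agt, which encodes angiotensinogen, fell by 0.34. Within BLKS islets 0 of the 20 were called (0.02 median), against 11.6% of all tested probes. Within B6 islets 1 was called, Agt, which fell by 0.43 (9.53% of all tested probes called). These counts take the brightest tested probe of each gene, which for Saa2 was not the probe close to Saa3. That probe was called higher in BLKS by 0.28 (limma adjusted p = 0.0443) and over both strains by 0.22 (adjusted p = 0.0123). Complement was as mixed, with 3 of 20 tested genes higher and 3 lower over both strains. Cfb, factor B of the alternative pathway that works with C3, rose by 0.83 (adjusted p = 0.0135), Cr1l, a regulator of C3 on cell surfaces, by 0.24, and Cfi, which cleaves C3b, by 0.18, while C2 fell by 0.16.

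Calls among signalling genes were mixed in direction and changed with the libraries left out, as did calls over all tested probes. Of 23 tested genes of NF-kB and STAT3 signalling, 5 were lower and 0 higher in BLKS than in B6 in high glucose (6.79% and 5.11% of all tested genes), among them the TNF receptor Tnfrsf1a (-0.68, limma adjusted p = 0.00166), the NF-kB inhibitor Nfkbia (-0.48), the kinase Jak1 (-0.23) and Nfkb1 (-0.20). In B6 islets 3 rose with glucose, Nfkbia by 0.43, Tnfaip3 by 0.33 and Nfkb1 by 0.16, and Il1r1 fell by 0.28. Of all tested probes 5.41% were called higher and 4.12% lower there. In BLKS islets 2 fell, Stat3 by 0.34 (adjusted p = 0.0243) and Jak1 by 0.24, and 0 rose (5.13% and 6.48% of all tested probes). The difference between these responses was called for 0 of the 23. Without both libraries that stood apart, 4 of the 23 were higher and 2 lower with glucose in B6 (6.56% and 5.63% of all tested probes). The strain comparison then gave 0 higher and 5 lower in high glucose (6.93% and 8.35%). It gave 7 and 3 in low glucose (7.05% and 8.57%), and 6 and 5 over both concentrations (11.6% and 14.1%). All mice had given 0 and 0 in low glucose, where 0% of all tested probes were called. Over both concentrations they had given 0 and 5 (8.06% and 10.7%). Of 10 tested S100 genes other than the members, 3 rose and 1 fell over both strains, with S100a4 up by 0.60, S100a10 by 0.27 and S100a13 by 0.17 and S100a3 down by 0.38. In high glucose S100a6 and S100a10 were lower in BLKS by 0.80 and 0.30. Among 18 tested receptors and partners in iron and haem handling, 3 rose and 3 fell with glucose over both strains. For this comparison 10.8% of all tested probes were called higher and 11.5% lower. Slc22a17, a receptor of lipocalin 2, rose by 0.12, Ly96, part of the TLR4 complex that binds calprotectin, by 0.34, while the ferritin light chain Ftl1 fell by 0.24 and the scavenger receptor Cd36 by 0.25. In high glucose Slc22a17 and the iron transporter Slc11a2 were higher in BLKS (0.19 and 0.37) and the ferritin heavy chain Fth1 lower (-0.51).

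Markers of other cell types were read beside the members. Calprotectin is abundant in neutrophils, and of 12 neutrophil genes with a probe 5 were tested, with a summed signal between 346 and 401 units in every mouse. That sum was 354 to 375 in B6 low, 356 to 401 in B6 high, 346 to 373 in BLKS low and 373 to 377 in BLKS high. Negative control spots read 51.6 to 60.9 units in Cy3 and 50.8 to 58.6 units in Cy5, and each of the 5 probes carries this background. Most of the sum is therefore background, and its narrow range does not measure neutrophil content. Mpo and Prtn3 were detected in 19 mice, Mmp9 in 18, Ltf in 13 and Elane in 5. The neutrophil genes Camp, Csf3r and Mmp8 were detected in 0 mice, Ngp, Cxcr2 and Retnlg in 1 each and Itgam in 2. Ltf rose by 0.11 over both strains and Mmp9 by 0.27 in B6, and 0 of the 5 were called in BLKS islets (11.6% of all tested probes). The part of neutrophils in the results of S100a8 and S100a9 was not tested. Of 12 macrophage markers 3 were lower with glucose over both strains and 0 higher (11.5% and 10.8% of all tested probes). Lyz2 was 0.76 lower in BLKS than in B6 in high glucose.

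Duct markers moved in the direction of the members. Of 11 tested, 5 rose with glucose over both strains and 0 fell, where 10.8% of all tested probes were called higher and 11.5% lower. Among those that rose were Spp1 by 1.37, Prom1 by 0.56, Epcam by 0.20 and Krt18 by 0.17. In high glucose 3 were higher in BLKS, Krt19 by 1.13, Spp1 by 1.80 and Epcam by 0.28 (4.98% of all tested probes higher). Without both libraries that stood apart 6 of the 11 were higher, and the share of all tested probes was 6.93%. The summed duct signal was 27834 to 45097 units in B6 low, 36851 to 41347 in B6 high, 29479 to 47032 in BLKS low and 45437 to 71677 in BLKS high. This sum adds signals that are not logged, so the brightest genes weigh most. Spp1 spanned 11.06 to 15.19 on the log2 scale and reached the highest signal of the list, so the sum can follow Spp1 alone. By this sum the highest B6 low mouse was the library labelled B6 low 4 and the lowest BLKS low mouse the library labelled BLKS low 5, as for Lcn2 and C3. The part of duct cells in the results of Lcn2, Lrg1, C3 and Cp was not tested. Of 10 mesothelial and fibroblast markers 6 were lower in BLKS in high glucose and 0 higher (6.13% and 4.98% of all tested probes). Msln was at -2.14 and Col1a1 at -1.34. Endothelial markers were lower with glucose in 5 of 9 over both strains, against 11.5% of all tested probes. Of 11 acinar markers, 3 fell, with Ctrb1 down by 0.34, and of 13 endocrine markers 1 rose, Pcsk1 by 0.42, and 2 fell, Slc2a2 by 0.57 and Mafa by 0.18. Ins1, Iapp and Chga shared a range of 15.80 to 16.18 on the log2 scale, at the top of the endocrine signals. A change in such bright probes may not be visible, so the absence of a call does not show that they were stable.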

How the data were processed

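The authors deposited Agilent Feature Extraction output, whose processed intensity values carry linear and LOWESS dye normalization without background subtraction, per the file headers (version 9.5.3.1, whereas the submitters' notes name 8.1). A deposited table of log2 values, the log2 of mean spot signal averaged over dyes, served as an alternative. Groups came from the labels. Intensities were converted to log2 after leaving out control and outlier spots, scaled between arrays (Aquantile), and averaged over spots, dyes and arrays of a mouse. Probes entered the test if 4 or more mice were well above background in all channels, which left 29326 of 41174 probes. Group means were compared with limma 3.58.1 in R 4.3.3, with moderated variances and Benjamini-Hochberg adjustment over all tested probes at 0.05. All limma p-values printed are of this kind unless said otherwise. Exact permutation tests were 2-sided, divided the mice of 2 groups in every way and were not adjusted. Where nothing but the label separates mice, p-values measure the spread between these samples. The number of arrays limits the precision.

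Bounds for probes at background were taken in Cy5, as the mean of the bright group over the mean, per array, of the higher of the probe and the lowest signal called well above background.

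Each array pair held a B6 and a BLKS mouse of 1 number and glucose concentration, as the sample descriptions show, and their deviations from the group means correlated from 0.0201 to 0.694 (median 0.482, against -0.0058 for other mice of different groups), so the pair was used as a block.

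The members, gene lists and tests were chosen with earlier results of these data known. Genes given by name are all member probes and the 3 probes of other named genes most correlated with each tested member over the 19 mice. Probes with an accession, a transcript identifier or a Rik name were left out of that ranking. To these were added up to 4 called genes per list and comparison by smallest adjusted p, each with its brightest tested probe. Gene symbols of lists were matched to those of the array, and older symbols by hand-written synonyms. A probe was also matched by the RefSeq symbol of its accession, which was found for 58.3% of tested probes. Promoters came from RefSeq tables of build GRCm38.p6.

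Alternatives were quantile normalization, no scaling, normexp background correction with an offset of 50, the authors' log2 table, either dye alone, no filter or a filter in every mouse, later arrays left out, the array pair as a fixed or random block, the linear model of the methods (single dye values), and leaving out each mouse or both libraries that stood apart. On simulated data with 200 of 29323 probes changed 2-fold, limma recovered from 96.5% of them for the strain difference in high glucose to 100% for the glucose response of B6. The simulated mice were independent, with no array pairs and no libraries that stood apart. These shares check the code and do not give the power in the real data. Measurements of physiology, protein and PCR were not analysed here.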

Additional observations from a re-analysis of the deposited data

Results flagged for a closer look

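In 6 of 36 sets of 1 probe in 1 group, a mouse lay far from the others of its group by Dixon's test, which chance gives in about 1 of 20 sets. The library labelled B6 low 4 was the highest of its group for S100a9 (6.43 on the log2 scale), Lcn2 (8.71) and Saa3 (6.07), and the library labelled BLKS low 5 was the lowest for Cp (6.08). The same libraries stood at 0.99 and -0.013 on the strain scale, each with the values of the other strain. The dim C3 probe A_52_P133594 was lowest in B6 high 5 (5.91) and in BLKS high 4 (5.90), within 0.27 of the negative controls in log2.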

How the results depend on the processing

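Leaving the signals unscaled, quantile normalization, normexp correction, the authors' log2 table, Cy5 alone, no filter on dim probes and leaving out later arrays kept each count of called members within 1.5 times. A filter in every mouse, under which S100a9, Saa3 and Cp are not tested, gave 3 calls in place of 5 for the glucose response over both strains, 1 in place of 3 in BLKS and 0 in place of 1 between strains in high glucose. Under that filter 27.7%, 15.2% and 13.6% of all tested probes were called, in the same order. The linear model of the methods, on single dye values, gave 5 in place of 1 in B6, 5 in place of 3 in BLKS, 5 in place of 3 between strains over both concentrations, 4 in place of 1 in high and 1 in place of 0 in low glucose, and 1 in place of 0 for the difference between responses. Under that model the share of all tested probes called was 18.9% in B6, 22.6% in BLKS, 29.3% between strains over both concentrations, 22.5% in high and 12.6% in low glucose and 0.726% for the difference between responses. Cy3 alone gave 1 call between strains in low glucose, where 4.26% of all tested probes were called.

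With the array pair as a fixed replicate block, 4 members were called between strains in high and 1 in low glucose (20% and 8.04% of all tested probes). As a random block the pair gave 3 calls for glucose over both strains, 5 between strains over both concentrations, 5 in high and 2 in low glucose. The shares of all tested probes were 13%, 33.5%, 25.2% and 16.1%, in this order. Glucose responses are not defined within a fixed pair, and the block changed no other count by over 1.5 times.

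Without both B6 low 4 and BLKS low 5, 3 members were called in B6, 5 between strains over both concentrations, 4 in high and 3 in low glucose. Of all tested probes, 12.2%, 25.8%, 15.3% and 15.6% were called, in this order. Leaving out 1 mouse at a time gave 5 calls for glucose over both strains, 1 to 3 in B6 (3 without B6 low 4, 2 without B6 high 4), 1 to 4 in BLKS (1 without BLKS low 5, BLKS high 1 or BLKS high 2) and 0 for the difference between responses. Between strains it gave 2 to 5 over both concentrations (5 without B6 low 4 or BLKS low 5), 1 to 2 in high glucose (2 without B6 low 4 or B6 high 3) and 0 to 3 in low glucose (3 without B6 low 4, 2 without BLKS low 5).

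Of single log2 differences of members under an alternative, 1186 kept direction and call, 31 lost and 59 gained a call, and 29 changed sign, each uncalled before and after. The strain difference of Lrg1 in high glucose was -0.069 without B6 high 4, and leaving out each mouse gave -0.069 to 0.67. The difference between responses changed sign for Lcn2 (main -0.02; 0.064 in the authors' table, 0.021 in Cy3 alone, 0.27 without later arrays, 0.28 and 0.14 with the fixed and random block, -0.88 without both libraries, -0.46 to 0.28 leaving out each mouse). For Lrg1 (main -0.09) it was 0.28 without later arrays, 0.35 and 0.15 with the blocks, -0.45 without both libraries and -0.39 to 0.35 leaving out each mouse. For Cp (main 0.05) it was -0.040 in Cy5 alone, -0.17 without both libraries and -0.06 to 0.14 leaving out each mouse. The cause of these changes was not tested. Signal over background limits S100a8, S100a9 in low glucose, Saa3, Hp and the second C3 probe.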
